A study of Mus musculus with 20 samples.

Results

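Plasmacytoid dendritic cells (pDC) were identified in single-cell RNA sequencing of non-adipocyte cells from brown fat between the shoulder blades of mice (interscapular brown adipose tissue, iBAT), and 316 of 54289 kept cells, 0.582%, met the rule. Members were chosen by their own measured levels of 8 marker genes. A member came from a library of lineage-positive (Lin+) cells, had under 10% mitochondrial counts, under 15000 unique molecular identifiers (UMIs, 1 per captured RNA molecule) and 300 to 4000 genes. Its summed value of Siglech, Ccr9, Cox6a2 and Klk1 was at least 4, with Siglech at least 1, C1qa plus C1qb under 2 and Cd79a plus Cd3e under 1. The values are UMI counts from which the authors had subtracted estimated background, and in 9 of the 10 libraries no member's Siglech value was whole, so that a single molecule there lies just below 1 and missed the limit. In the first library of C57BL/6J mice at room temperature all 23 members had whole Siglech values and 2 of them met the limit with 1 molecule. With the rule applied to values rounded to whole numbers, an alternative chosen after seeing the data, there were 350 members.

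pDC are round dendritic cells, named for their resemblance to plasma cells, that mature in the bone marrow under the transcription factor TCF4 and reach tissues through the blood. They sense viral and self nucleic acids in endosomes through TLR7 and TLR9, and after activation secrete large amounts of type I interferon. Interferon binds its receptor on many cell types, including pDC themselves, and turns on a shared programme of interferon-stimulated genes. SIGLEC-H and BST2 are surface proteins used to recognise mouse pDC, and CCR9 is a chemokine receptor they carry on their way to mucosal tissue.

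There were 10 Lin+ libraries, each from 3 to 4 pooled mice of 8 to 14 weeks. Male C57BL/6J mice (C57) gave 2 libraries each at room temperature (RT, 24 °C), after 4 days at 6 °C (COLD) and after 4 days of the beta3-adrenergic agonist CL316,243 at 0.75 nmol per hour from a pump (CL). Female mice with floxed Adrb1, the gene of the beta1-adrenergic receptor, gave 1 RT and 1 COLD library without Pdgfra-CreER (WT) and 1 of each with it (KO), and all of these mice had received tamoxifen. The Cre is driven by Pdgfra, a stromal gene, and is not directed at pDC. The line and the sex cannot be told apart, and within the Adrb1 line both RT libraries were made with version 3 of the 10x kit and both COLD libraries with version 2, so cold and kit cannot be told apart there. Lin+ cells were enriched with an antibody cocktail that contains anti-CD45R (B220), a protein that mouse pDC carry, so this sort can set the shares given here.

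The libraries held 2295 to 8901 kept cells each, and 4 to 74 pDC with a median of 2298 to 7407 UMIs per pDC. The WT RT library, with 4 pDC, was left out of the expression fits, except in alternatives that name it. The Lin+ library of the second CL experiment shared 1082 kept barcodes with its Lin- library, against 2 to 118 in the other experiments, but none of these belonged to a pDC. In all, 5 pDC had a barcode that also occurred in the Lin- library of their experiment (3 in the first C57 COLD library, 1 in the first CL library and 1 in the WT COLD library). Pairs of Lin+ libraries shared 0 to 103 kept barcodes, none of them a pDC in both. Some pDC also carried RNA of other cells: 26 of 316 had 5 or more summed counts of Lyz2, Fabp4, S100a8 or hemoglobin genes, and 17 of these had at least 5 of Lyz2, of which 7 were in the first C57 COLD library. In the second C57 COLD, WT COLD and KO COLD libraries the Hbb-bs counts (1426, 3008 and 1214) came each from 1 cell. Doublets were not called. The COLD shares, the calls in COLD and the comparisons between classes are also given without the 26 cells.

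Genes that the rule did not use were also set against the other gated classes. Of 24 further genes known from pDC, 23 had a median level in the 10 libraries above that of every other gated class (mature DC, cDC1, cDC2, B cells, T cells and macrophages). These 24 genes were chosen with earlier results of these data known, so the count is a description and not an independent check of the label. Monocytes, neutrophils and NK cells had no gate. Cells outside all gates, from 755 of 2295 kept cells in KO RT to 5572 of 8901 in WT COLD, were not compared. Levels are given as counts per 1000000 (CPM) of all counts summed over the cells of a class in a library. Bst2 had a median of 4927 CPM in pDC against 585 in macrophages, the next class, and Tcf4 had 1564 CPM against 187 in B cells. Irf8, a transcription factor of pDC and cDC1, had 3524 CPM in pDC and 2256 in cDC1, and Ly6d, which B cells share, had 3215 against 1845 in B cells. The exception was Gzmb, the gene of a cytotoxic granule protease found in human pDC, with a median of 0 CPM in pDC and 274 in T cells. Because the rule separated these classes, the levels are descriptions with no test.

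The 4 genes of the rule itself ran from 1498 to 4410 CPM for Siglech, 575 to 3137 for Ccr9, 501 to 1537 for Cox6a2 and 407 to 1537 for Klk1 over the 10 libraries. Among other genes with a median of at least 50 CPM in pDC, and with 1 CPM added to both sides, the largest median ratios over the next class were those of Gm21762, Sh3bgr, Klk1b27, Atp2a1, Pgam2 and Dntt. Sh3bgr had a median of 172 CPM in pDC and no more than 0.041 in any other gated class. Atp2a1, the calcium pump of fast muscle, had 214 CPM, and Pgam2, the muscle phosphoglycerate mutase, had 93.0 CPM but 0 in the library of 4 pDC. Cox6a2 is likewise the heart and muscle form of a cytochrome oxidase subunit. The muscle genes Acta1 and Ckm were at 0 in the pDC of all 10 libraries. Dntt, the DNA polymerase that adds bases to rearranging antigen receptor genes in lymphoid precursors, had 111 CPM against 1.57 in T cells. Runx2 had 507 CPM against 28.3 in cDC2, and Lefty1, a secreted antagonist of Nodal signals, had 240 CPM against 7.53 in cDC2. Klk1 and Klk1b27 belong to a family of closely similar kallikrein genes, so how the counts divide between them is uncertain.

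**Figure D1:**
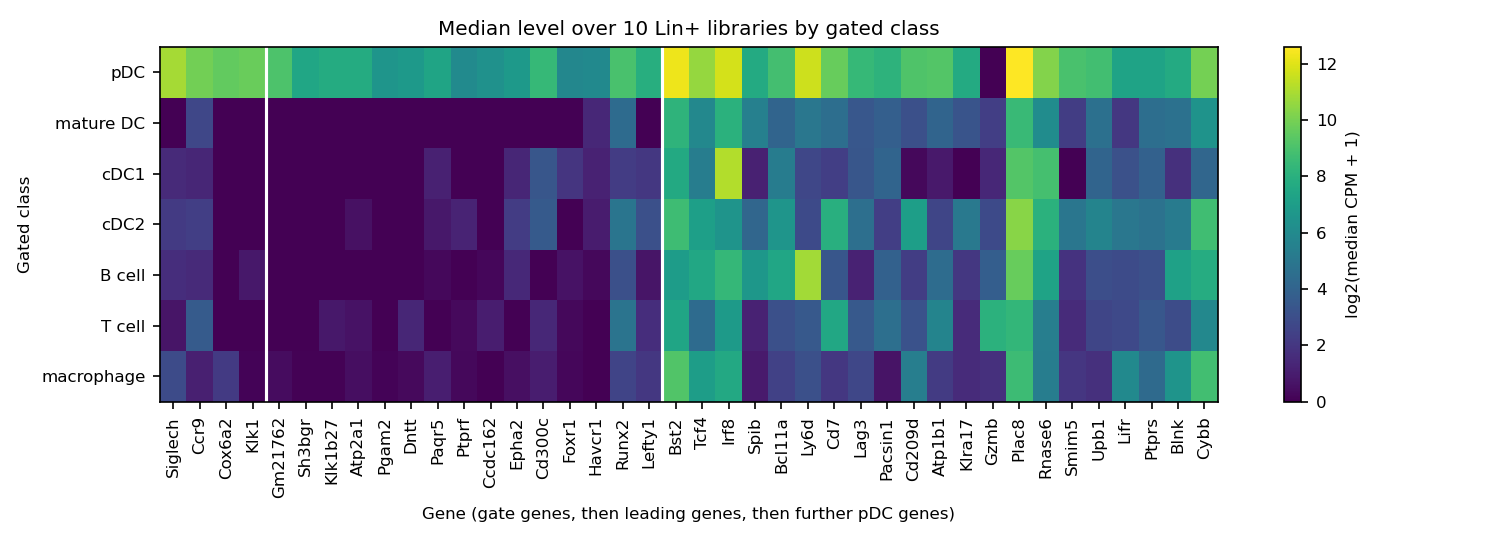
Median level of each gene over 10 Lin+ libraries, as log2(median CPM + 1) in colour, for 7 gated classes (rows) and for the 4 genes of the rule, the 15 leading genes and the remaining pDC genes (columns, separated by white lines). The pDC row is the brightest in every column except Gzmb, which had a median of 0 in pDC.

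Near the edge of the rule, 19 members had a marker sum from 4 to under 5, and 25 cells that met all other criteria had a sum from 3 to under 4. Summed over cells, Bst2 stood at 3749 CPM in the former and 3791 in the latter, and Tcf4 at 1265 and 1235. Ly6d differed, with 697 CPM inside and 115 outside, against 3271 over all members. The marker sum had a median of 16.0, and 281 of the 316 members reached 6. The C1qa and C1qb or Cd79a and Cd3e limits removed 22 cells, and 16 cells lay just below 1 for Siglech.

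The share of pDC among kept Lin+ cells was compared first between COLD and RT, which asks whether cold changes their part of the sorted Lin+ cells. Such a share does not give the number of pDC in the tissue. At RT it was 0.526% and 0.483% in the C57 libraries, 0.123% in WT (4 cells of 3248, exact 95% binomial interval 0.0336 to 0.315) and 0.392% in KO. In COLD it was 0.930% and 0.610% in C57, 0.652% in WT and 0.525% in KO. Each COLD library stood above the RT library or libraries of its own line, while over all lines the lowest COLD value, in KO, was just below the highest RT value. The mean was 0.679% ± 0.175 (SD, n = 4) in COLD and 0.381% ± 0.181 (SD, n = 4) at RT, a difference of 0.298 percentage points (exact two-sided permutation test, p = 0.0571, smallest possible 0.0286). The difference was 0.265 points within C57 and 0.331 within the Adrb1 line, where 2 against 2 libraries cannot go below p = 0.333 in an exact permutation test. With the rule applied to rounded values the difference was 0.438 points and all 4 COLD libraries lay above all RT libraries (exact permutation test, p = 0.0286). It was 0.263 points without the 26 cells rich in other RNA, 0.228 with a marker sum of at least 6 and 0.289 with every cell thinned to 1000 UMIs (exact permutation test, p = 0.0857 in each). Intervals cover counting error only, and p-values measure the spread between pooled libraries.

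The 2 CL libraries had 0.576% and 0.473% pDC, against 0.526% and 0.483% in the C57 RT libraries, so the groups overlapped. The difference was 0.0198 points (exact two-sided permutation test, p = 1, smallest possible 0.333). With every cell thinned to 1000 UMIs and a marker sum of at least 2, CL stood at 0.699% and 0.533% against 0.405% and 0.434% at RT, with no overlap. CL then exceeded RT by 0.196 points, at the smallest p that 2 against 2 libraries allow (0.333 in the exact permutation test). CL also lay above RT with at least 500 genes per cell (0.0725 points) and without barcodes shared with the Lin- library (0.0641 points). In the rule as given the sign of the difference rested on 1 library: it was -0.0314 points without the first CL library and -0.00185 without the second RT library.

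As a share of all gated dendritic cells, pDC made up 8.58% and 8.91% at RT in C57, 2.04% in WT and 6.34% in KO. In COLD the values were 5.56% and 3.38% in C57, 6.12% in WT and 5.71% in KO, and after CL 11.8% and 9.76%. Both C57 COLD libraries were below both C57 RT libraries, and the Adrb1 line showed no such separation. The mean was 5.19% ± 1.23 (SD, n = 4) in COLD and 6.47% ± 3.17 (SD, n = 4) at RT (exact two-sided permutation test, p = 0.543, smallest possible 0.0286). The difference was -4.28 points within C57 (p = 0.333 in the exact permutation test, the smallest possible) and 1.73 points within the Adrb1 line. Over all lines it was -1.28 points, and -2.75 without the WT RT library of 4 pDC (exact permutation test, p = 0.0571, the smallest possible). Every remaining RT library then lay above every COLD library. In the WT and KO RT libraries the cells gated as mature DC had H2-Aa at 1376 and 1240 CPM, against 7437 to 19311 CPM elsewhere, so the denominator went against its label there. With pDC, cDC1 and cDC2 alone as the denominator, a choice made after seeing the data, COLD minus RT was -4.61 points (exact permutation test, p = 0.229), -4.34 within C57 and -4.89 within the Adrb1 line. In that line WT then went from 5.80% at RT to 8.41% in COLD and KO from 21.4% to 9.05%, in opposite directions. With the mature DC kept, the difference without the 26 cells was -1.35 points (exact permutation test, p = 0.4).

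**Figure D2:**
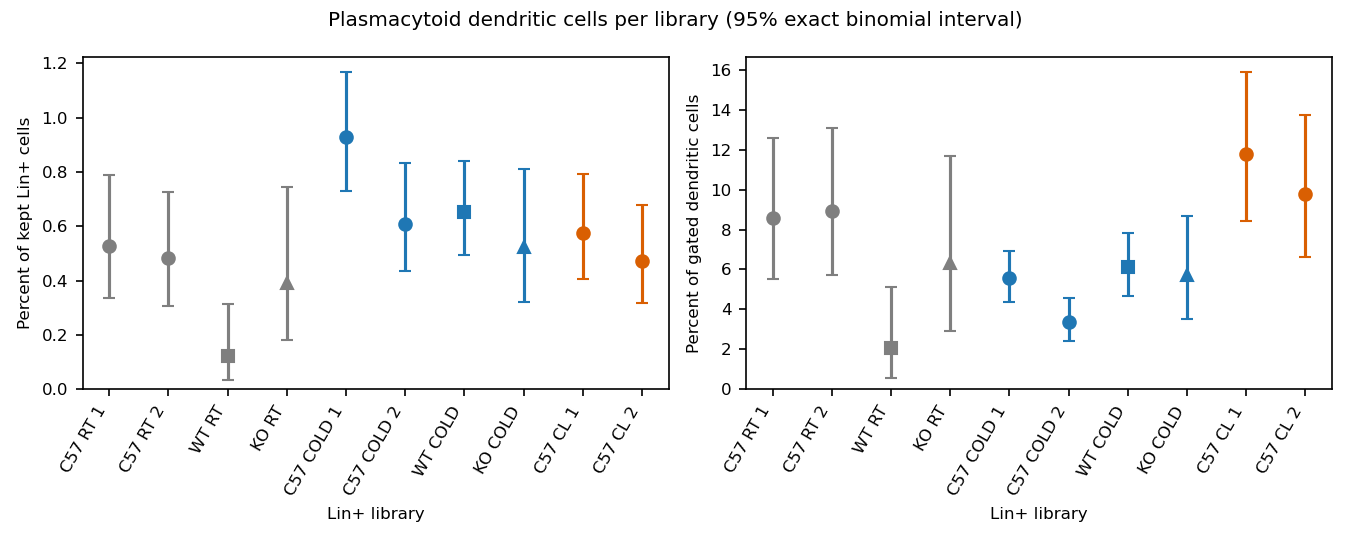
Share of pDC in each of 10 Lin+ libraries, as percent of kept Lin+ cells (left) and of gated dendritic cells (right), with exact 95% binomial intervals. Grey is RT, blue COLD and orange CL, and circles are C57, squares WT and triangles KO. Of Lin+ cells, each COLD library lies above the RT libraries of its line, and of dendritic cells both C57 COLD libraries lie below both C57 RT libraries.

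Expression was then compared between COLD and RT within pDC, with counts summed over the pDC of each library. Isg15, the gene of a ubiquitin-like protein that is attached to other proteins in interferon-treated cells, had the largest called rise in COLD. Of 3431 genes tested, 6 rose and 1 fell, 0.204% of genes in all, 0.175% rising and 0.0291% falling (edgeR's quasi-likelihood test, Benjamini-Hochberg adjusted p below 0.05, and 432 genes at an unadjusted p below 0.05). The fit held 9 libraries with terms for treatment and line and 4 residual degrees of freedom. Since WT had only its COLD library in the fit, the cold estimate came from C57 and KO. DESeq2 called 11 genes.

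Isg15 was at 0, 29.6 and 46.6 CPM in the first C57, second C57 and KO RT libraries, on 6 counts in all, and at 785, 614, 326 and 537 CPM in the first C57, second C57, WT and KO COLD libraries. All 4 COLD libraries stood above all RT libraries, and the 2 CL libraries, at 142 and 73.8 CPM, lay between them. The log2 fold change was 4.64 (SE 0.50) in edgeR's quasi-likelihood fit, with a Benjamini-Hochberg adjusted p of 0.000466. Ifitm3, which encodes a membrane protein that blocks virus entry, was at 137, 118 and 140 CPM at RT and at 1512, 935, 912 and 1220 CPM in COLD, again with no overlap, while CL stood at 153 and 230 CPM. Its log2 fold change was 3.18 (SE 0.35, edgeR adjusted p = 0.000466). Both genes were called in 23 of 23 alternative settings, with adjusted p up to 0.0284 for Isg15 and 0.0378 for Ifitm3. The promoter of Isg15 is shown because it carries the motif bound by interferon-activated factors, and that of Bst2 because this pDC marker carries the motif and is known as an interferon-induced gene in other cells. Capitals mark matches to GAAANNGAAA, searched on both strands and joined where they overlap or are contiguous, in RefSeq sequence of GRCm38.p6, both on the minus strand and written 5′ to 3′ along the gene. Isg15 lies at chr4:156200850-156200921 (matches 78 to 57 bases before the start) and Bst2 at chr8:71537562-71537627 (130 to 115 bases before the start).
Isg15: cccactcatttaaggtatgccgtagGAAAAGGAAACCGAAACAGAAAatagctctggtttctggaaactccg
Bst2: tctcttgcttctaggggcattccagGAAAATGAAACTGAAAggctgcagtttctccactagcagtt
The motif was found in 1079 of 27025 promoters of the same length (300 bases), 3.99%, and a match is a description of letters only.

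Apod encodes apolipoprotein D, a secreted lipid carrier. It was at 0, 9.88 and 93.3 CPM at RT and at 409, 549, 173 and 355 CPM in COLD, so all COLD libraries were higher, the WT library least so. Its log2 fold change was 3.87 (SE 0.65, edgeR adjusted p = 0.0259), and 3.32 to 6.07 with each library left out. Ly6a, the gene of the surface protein Sca-1, was at 685, 701 and 529 CPM at RT, at 2415, 3767, 1423 and 1929 CPM in COLD and at 1510 and 1280 CPM after CL. CL thus overlapped COLD and stood above RT, and the COLD change was 2.04 (SE 0.33, log2, edgeR adjusted p = 0.0215). Nt5c3, a cytosolic nucleotidase gene, had 1 count in each of the 3 RT libraries and 16 to 27 counts in each COLD library. Over the summed libraries this was 8.91 times as much of all counts (exact 95% interval 2.94 to 44.1, counting error only), with an edgeR adjusted p of 0.0348. With only 3 counts at RT, Nt5c3 passed the filter on low counts through the other conditions and had to have a positive estimate. Apod, with 7 counts over the RT libraries of the fit, can share this limit. Lefty1 was at 87.2, 59.2 and 62.2 CPM at RT and at 299, 250, 264 and 246 CPM in COLD, a log2 change of 1.89 (SE 0.35, edgeR adjusted p = 0.0366). In the 4 pDC of the WT RT library, outside the fit, Lefty1 stood at 242 CPM on 5 counts, close to COLD. Kctd12, which encodes an auxiliary subunit of GABA-B receptors, was the gene that fell. It was at 511, 375 and 746 CPM at RT and at 155, 150, 219 and 264 CPM in COLD, a log2 change of -1.54 (SE 0.28, edgeR adjusted p = 0.0366).

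These calls were not equally stable. Of 23 alternatives, Apod was called in 20, Ly6a in 19, Kctd12 in 16 and Lefty1 in 9, and Nt5c3 in 9 of 21, with adjusted p reaching 0.183, 0.183, 0.235, 0.183 and 0.184. The number of calls was 2 (Isg15 and Ifitm3) without the first C57 RT library, 4 without the second C57 RT library or without the WT COLD library, and 12 without either KO library, of which 5 were higher and 7 lower. With the replicate number as a block it was 5, and Nt5c3, Lefty1 and Kctd12 had adjusted p of 0.0546, 0.0686 and 0.0686. Within C57 alone 13 genes were called, 6 higher and 7 lower, and Nt5c3 was not (adjusted p = 0.0900). Without the 26 pDC rich in RNA of other cells, 14 genes were called (12 higher, 2 lower), with the WT RT library of 4 pDC 27 (15 higher, 12 lower), and with the rule applied to rounded values 13 (12 higher, 1 lower).

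**Figure D3:**
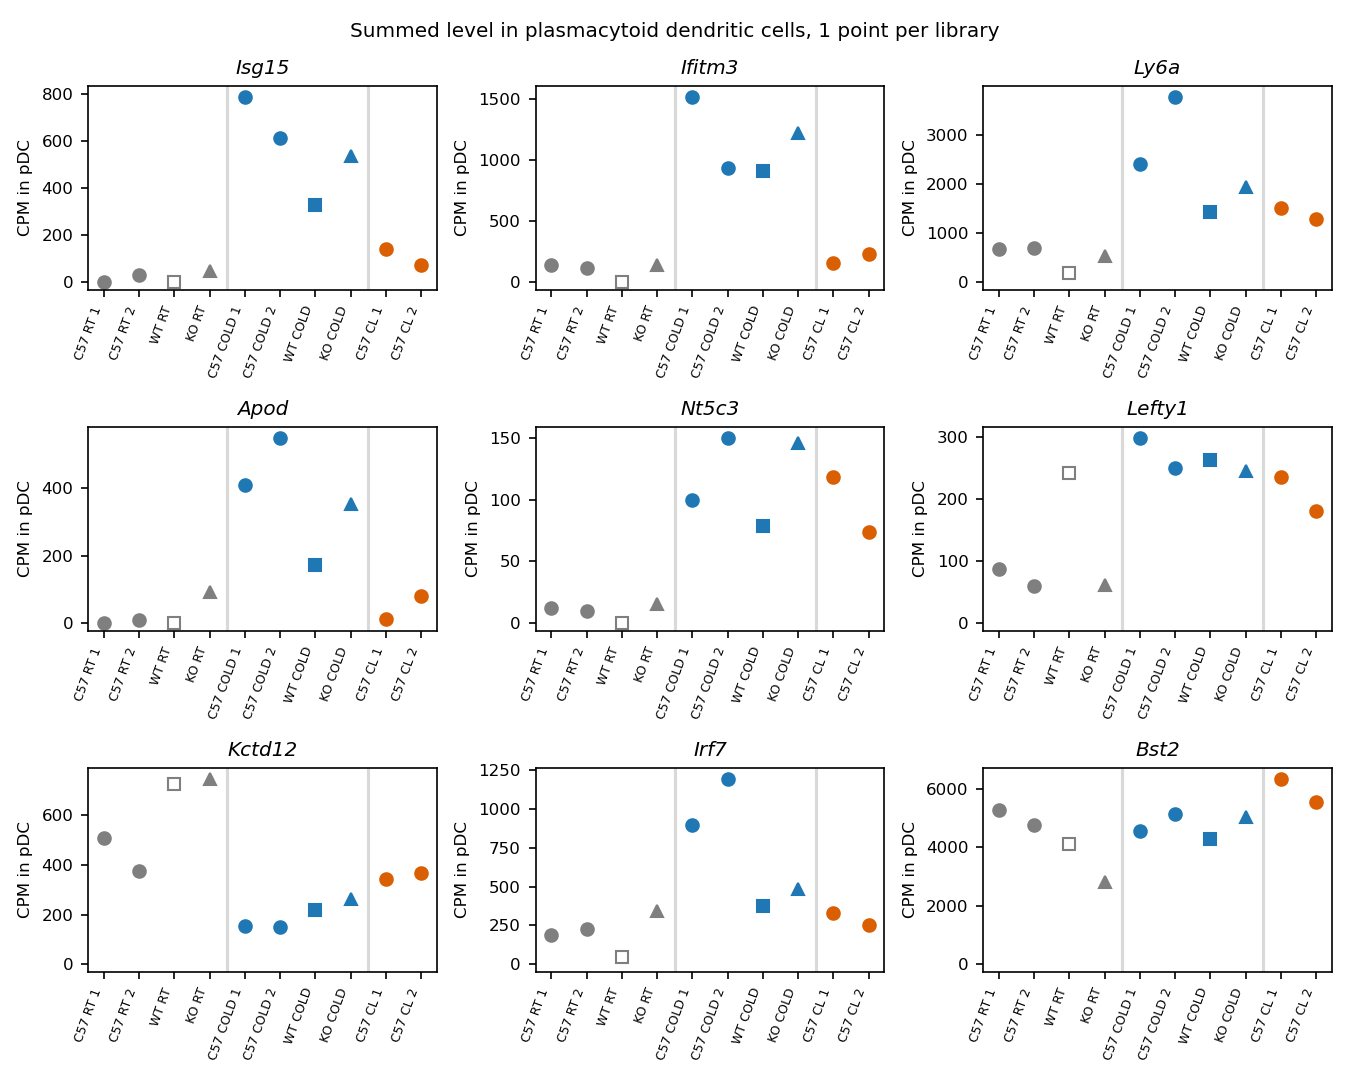
CPM of 9 genes in the summed pDC of each library, 1 point per library on linear axes. Grey is RT, blue COLD and orange CL, circles are C57, squares WT and triangles KO, and the open square is the WT RT library of 4 pDC that was left out of the fit. The 7 genes called in COLD are shown first, then Irf7, which missed the threshold, and Bst2, which had similar levels in RT and COLD.

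Among single pDC, Isg15 was detected in 77 of 191 COLD, 5 of 59 RT and 15 of 66 CL cells. After every cell was thinned to 1000 UMIs, which left out no pDC, Isg15 was detected in 41 COLD cells (21.5%), 0 RT cells (0 of 59) and 7 CL cells (10.6%). In thinned B cells the shares were 5.99%, 2.12% and 3.09%. Irf7, the gene of the factor that drives interferon genes in pDC, was detected in 46.1% of thinned COLD, 18.6% of RT and 24.2% of CL pDC, but by library the shares overlapped, with 0% to 33.3% at RT and 32.8% to 64.1% in COLD. Ifitm3 was detected in 58 of 191 COLD (30.4%), 14 of 59 RT (23.7%) and 11 of 66 CL pDC (16.7%) before thinning, and in KO in a larger share at RT (44.4%) than in COLD (40%). After thinning the Ifitm3 shares were 25.1%, 8.47% and 6.06%, with 0% to 11.1% in the RT and 15.4% to 40% in the COLD libraries. Thinned B cells had Ifitm3 in 8.28% in COLD, 6.43% at RT and 15.2% after CL. A single pDC held 24.4% to 37.9% of the summed Ifitm3 counts of each COLD library. For Lefty1 the thinned shares were 19.4% in COLD, 13.6% at RT and 19.7% after CL, against 64.4%, 25.4% and 37.9% before thinning. Apod was detected in 16.2% of COLD, 1.69% of RT and 4.55% of CL pDC, and in 0.107%, 0% (0 of 3438) and 0.359% of thinned B cells. Before thinning the Apod shares overlapped by library, with 33.3% in KO at RT (3 of 9 cells) against 15.5% to 35.9% in COLD. The thinned Isg15 share in COLD ran from 12.1% in WT to 30.8% in the second C57 library, and the share before thinning from 29.3% in WT to 55% in KO. The thinned Isg15 share was 16.2% in the first and 3.45% in the second CL library, so COLD and CL overlapped by library.

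Of 36 interferon response genes on a list, 23 could be tested. The filter kept genes with enough counts in some libraries, and 6 of the 23 (Ifit2, Ifit3, Isg20, Rsad2, Mx1 and Ifi44) had no more than 3 summed counts at RT, so that they passed it through COLD and had to have a positive estimate. Ifih1, Xaf1, Isg15, Oasl2, Usp18, Ifi204 and Zbp1 had only 4 to 8 summed counts at RT, so this effect can reach beyond the 6. Counts and medians over the list are therefore given as descriptions only. All 23 had a positive cold estimate, against 1687 of 3431 genes, and the median log2 fold change was 1.85 against -0.01 over all genes. Isg15 alone passed the test, 16 were higher at an unadjusted p below 0.05, against 219 of all genes, and in 12 the 4 COLD libraries all lay above the 3 RT libraries, as they did in 10.1% of all genes. The 13 untested genes are not described by these numbers. Irf7 was at 187, 227 and 342 CPM at RT and at 896, 1191, 375 and 482 CPM in COLD. The C57 COLD libraries were far above RT, and the WT COLD library barely so. Its log2 fold change was 1.71 (SE 0.35, edgeR adjusted p = 0.0607), and Usp18, a protease that removes ISG15 from proteins, stood at 2.97 (SE 0.61, edgeR adjusted p = 0.0607). Trim30a had 1.47 (SE 0.31, adjusted p = 0.0607). Irf7 and Usp18 were called once the 26 cells rich in other RNA were left out. Ifit2 and Ifit3, RNA-binding interferon response genes, had no count in the RT libraries of the fit and 50 and 43 counts in COLD. Against a limit of 3 counts over the RT libraries these were at least 5.37-fold and 4.62-fold higher, on counting error only, and 38 of the Ifit3 counts came from the first C57 COLD library. On the log2 scale both bounds lie above the median of the list, so setting the genes to them could not move the 1.85.

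Other members of the list moved less. Stat2 and Irf9, factors that carry the interferon signal, had log2 estimates of 0.60 (SE 0.60) and 0.39 (SE 0.44). Bst2 was at 5292, 4779 and 2829 CPM at RT, at 4571, 5144, 4278 and 5042 CPM in COLD and at 6337 and 5562 CPM after CL, so RT and COLD overlapped. Its estimate was 0.21 (SE 0.33, edgeR adjusted p = 0.816), and its promoter holds the same motif as that of Isg15. The genes of the receptor, Ifnar1 and Ifnar2, had estimates of 0.18 (SE 0.30) and 0.21 (SE 0.36). Within C57 alone, 16 of the list's genes were tested with a median of 1.64, and without the cells rich in other RNA 19 were tested with a median of 1.50. Almost no interferon mRNA was counted in the pDC themselves. Of 20 type I and III interferon genes, 1 had a count, a single count among 1.23e+06. For the others a count of 0 over all pDC allows up to 2.43 CPM each, on counting error only.

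**Figure D4:**
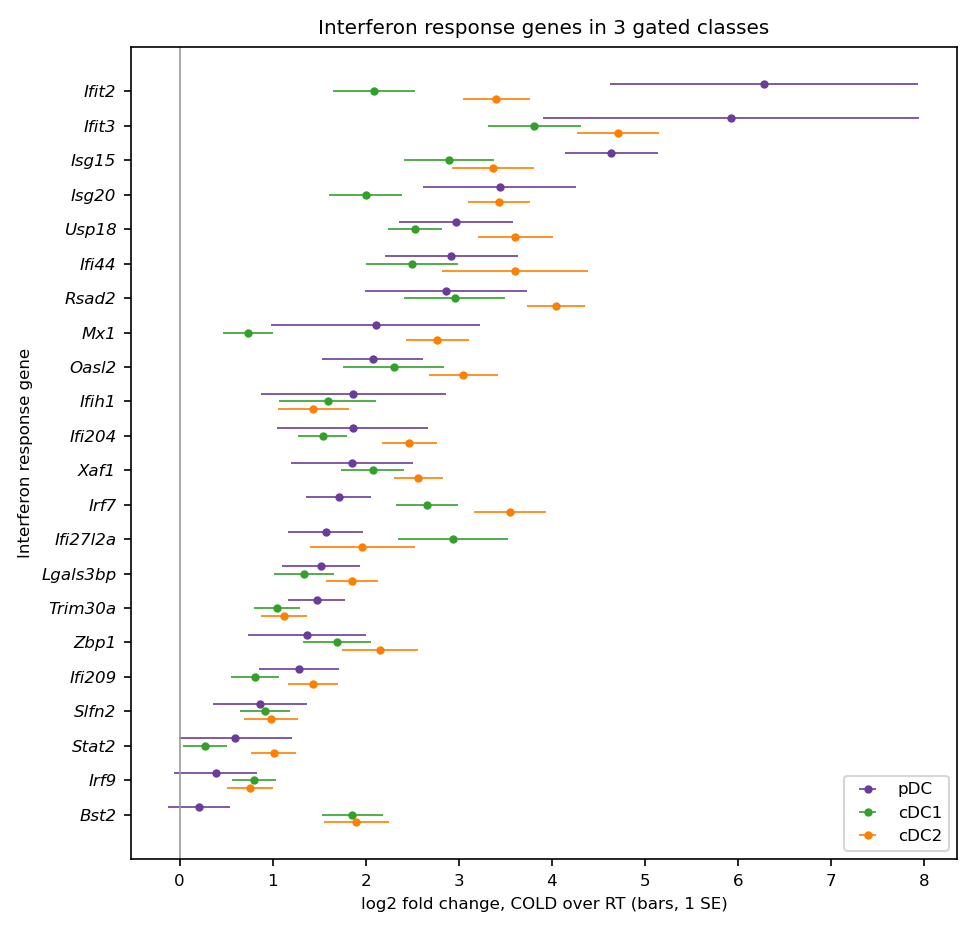
Log2 fold change of COLD over RT (points) with 1 SE (bars) for 22 of the 23 interferon response genes tested in pDC, in pDC (purple), cDC1 (green) and cDC2 (orange), each class fitted by edgeR over summed counts per library. All pDC estimates shown lie above 0, Bst2 is the lowest in pDC, and the pDC values of Ifit2 and Ifit3, at 0 in the RT libraries of the fit, depend on the prior count of the fit.

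Lists that describe pDC identity and function held no further called gene in COLD. Among 9 transcription factors the median log2 estimate was -0.22. Tcf4 stood at -0.33 (SE 0.30) and Irf8 at 0.55 (SE 0.31), and Runx2, which pDC need to leave the bone marrow, at -1.12 (SE 0.32, edgeR adjusted p = 0.177). Runx2 was at 585, 504 and 1523 CPM at RT and at 383, 350, 392 and 337 CPM in COLD, with the KO library, made with kit version 3, far above the C57 ones. Of 19 surface and secretory genes, with a median of 0.36, Ly6c2, a surface protein of the Ly6 family, came closest. It was at 1756, 2804 and 1228 CPM at RT and at 5257, 6863, 3614 and 5843 CPM in COLD, with no overlap, and its log2 change was 1.66 (SE 0.36, edgeR adjusted p = 0.0936). Lag3, an inhibitory receptor, had 1.03 (SE 0.30) and Cd8a 1.56 (SE 0.55), with adjusted p of 0.177 and 0.268 in edgeR.

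In the nucleic acid sensing list (13 tested, median 0.23), Tlr7 had an estimate of -0.15 (SE 0.38). Unc93b1, which carries these receptors to endosomes, had 0.87 (SE 0.33), Pld4, an endosomal nuclease, 0.79 (SE 0.30) and Irf5 1.24 (SE 0.39), with edgeR adjusted p of 0.316, 0.316 and 0.224. Tlr9 was at 0 CPM in the pDC of 8 of the 10 libraries and at 3.69 and 7.16 CPM in the C57 COLD libraries, too few counts to test. Of 8 MHC class II genes, which present antigen, 2 had positive estimates and the median was -0.31, and of 10 MHC class I genes 8 were positive with a median of 0.36. B2m, the shared light chain of class I, had 1.16 (SE 0.37, edgeR adjusted p = 0.224). Its RT values were 4707, 5658 and 1694 CPM, the last from the kit version 3 library, and its COLD values 7808, 10480, 7957 and 6598 CPM. The 11 sterol synthesis genes had a median of -0.83 in COLD and -0.61 after CL, comparisons that share the RT libraries, with Hmgcs1 at -1.06 (SE 0.34) in COLD and an edgeR adjusted p of 0.226. Medians in COLD were -0.03 for 14 trafficking and costimulation genes, -0.08 for 8 growth factor receptors, 0.28 for 14 endoplasmic reticulum genes, 0.04 for 4 cell cycle genes, -0.05 for 14 genes known to respond to tissue dissociation and -0.01 for 9 genes of transitional dendritic cells.

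Genes that mark other cells varied in level between the libraries. The summed level of 7 macrophage genes in pDC was 96.3 to 615 CPM at RT, 36.6 to 4890 in COLD and 63.2 to 414 after CL, against 37550 in macrophages, and the highest value was that of the first C57 COLD library. For 6 B cell genes the ranges were 63.1 to 543, 241 to 576 and 320 to 571 CPM, and for 6 T and NK cell genes 0 to 150, 7.03 to 177 and 7.95 to 57.5 CPM. The 2 neutrophil genes reached 19.9 CPM at RT, 175 in COLD and 426 after CL, and the 5 adipocyte genes 113, 43.5 and 2246 CPM. The 3 erythroid genes stood at 0 to 11.8 CPM at RT, 1.29 to 19618 in COLD and 141 to 5284 after CL. The 3 cDC1 genes stood at 99.7 to 203 CPM at RT, 63.9 to 118 in COLD and 73.7 to 82.2 after CL, against 678 in cDC1. The 3 cDC2 genes stood at 348 to 749, 281 to 394 and 547 to 571, against 1946 in cDC2. Cd209a, the gene of the cDC2 gate, was detected in 30 of 59 RT, 64 of 191 COLD and 29 of 66 CL pDC before thinning. Whether pDC express these genes themselves was not tested. The 3 mature DC genes stood at 0 to 12.3, 7.06 to 148 and 8.19 to 45.9, against 4097 in mature DC. The 4 stromal genes stood at up to 16.5, 8.26 and 78.2, with 1 stromal gene at 0 throughout. Without the 26 cells, 14 genes were called instead of 7, Isg15 and Ifitm3 among them. The part of the remaining RNA of other cells in the result was not tested. Gm42418, a locus whose counts resemble ribosomal RNA, stood at 15640 and 14403 CPM in the pDC of the 2 kit version 3 libraries, WT RT and KO RT, against 103 to 1920 CPM in the others.

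CL was compared with RT to ask whether stimulation of the beta3-adrenergic receptor, without cold, gave the same change. No gene was called in pDC (0% of 3431 by edgeR's quasi-likelihood test, with 127 genes at an unadjusted p below 0.05, and 0 by DESeq2). Of the genes called in COLD, Nt5c3 had the largest CL estimate, 2.92 (SE 0.69), followed by Isg15 with 1.98 (SE 0.68) and Lefty1 with 1.48 (SE 0.41), each with an adjusted p of 0.995 in edgeR. Lefty1 was at 236 and 180 CPM after CL, above both C57 RT libraries. Apod and Ifitm3 had 0.90 (SE 0.98) and 0.56 (SE 0.43). The interferon response list had a median of 0.26 with 18 of 23 positive, against -0.01 and 1704 of 3431 over all genes, and 2 genes, Isg15 and Trim30a (0.96, SE 0.36), had an unadjusted p below 0.05. The neutrophil, adipocyte and stromal genes given above were highest in CL libraries. The cold and CL estimates share the RT libraries, and the difference between them was not tested.

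KO and WT were compared over both temperatures, which in this fit set the KO libraries at RT and in COLD against the WT COLD library, so that the WT side was 1 library with no replicate. No gene was called (0% of 3431 by edgeR's quasi-likelihood test, with 81 genes at an unadjusted p below 0.05, and 0 by DESeq2). The interferon response list had a median of 0.42 with 19 of 23 positive, against 0.03 and 1799 of 3431 over all genes, and no gene at an unadjusted p below 0.05. Of the 7 genes called in COLD, Apod had the largest estimate, 1.43 (SE 0.75).

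The cold response of pDC was set against that of dendritic cells labelled here as conventional, from the same libraries. These were cDC1 (gated on Xcr1 and Clec9a, specialised in cross-presentation) and cDC2 (gated on Cd209a). The paper identified its cluster with Cd209a and Itgam as monocyte-derived dendritic cells, so the cDC2 gate can hold such cells. Whether cold changed which cells filled a gate was not tested. In their own fits cold changed 177 of 7878 genes in cDC1 (2.25%, of which 0.965% higher and 1.28% lower) and 407 of 8499 in cDC2 (4.79%, of which 2.71% higher and 2.08% lower). All libraries together held 1497 cDC1, 1812 cDC2 and 316 pDC. The WT RT library, outside these fits, held 19, 46 and 4 of them. The response itself differed between pDC and cDC1 in 12 of 5651 genes (0.212%, with a higher change in pDC in 0.159% and a lower one in 0.0531%) and between pDC and cDC2 in 11 of 5740 (0.192%, with 0.0697% higher and 0.122% lower), by edgeR's quasi-likelihood test of the interaction with Benjamini-Hochberg adjustment.

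Several genes that stood high in pDC at RT had a larger log2 change in the conventional classes than in pDC. In CPM the order can differ. Bst2 was at 105 to 144 CPM in cDC1 at RT and 347 to 623 CPM in COLD, and at 195 to 285 and 553 to 1002 CPM in cDC2, with no overlap in either. In pDC it was at 2858 to 5312 CPM at RT and 4287 to 5160 CPM in COLD, which overlapped. The CPM ranges of this comparison come from the sums before rounding and differ slightly from the fit's values above, which come from rounded sums. Cold estimates were 1.86 (SE 0.33) in cDC1 and 1.90 (SE 0.35) in cDC2 against 0.21 in pDC, a difference of -1.66 (SE 0.19) and -1.62 (SE 0.21), the latter with an edgeR adjusted p of 0.0022. Plac8, a small cysteine-rich protein gene, was at 19.8 to 178 CPM in cDC1 at RT and 1172 to 2026 CPM in COLD, while in pDC it was at 2699 to 4449 and 6293 to 7725 CPM. The pDC estimate was 0.80 (SE 0.31, edgeR adjusted p = 0.323), that in cDC1 3.84 (SE 0.41), and the log2 difference of the changes was -3.01 (SE 0.19). Ly6a rose in all 3 classes, by 2.04 in pDC, 4.34 (SE 0.54) in cDC1 and 4.24 (SE 0.37) in cDC2, and the changes differed by -2.28 (SE 0.44) and -2.18 (SE 0.32), with edgeR adjusted p of 0.0234 and 0.0075. Against cDC2, Gpr171, a G protein-coupled receptor gene, and Ly6e differed by -2.80 (SE 0.35) and -1.81 (SE 0.24), and Klra17, a pDC lectin receptor, by -1.84 (SE 0.33). Gpr171 was at 242 to 623 CPM in pDC at RT and 563 to 747 CPM in COLD, and at 14.3 to 33.1 and 110 to 196 CPM in cDC2.

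For other genes the cold estimate was more positive in pDC than in the class it was set against. Ifitm3 was at 1131 to 2918 CPM in cDC2 at RT and 5030 to 6165 CPM in COLD, an estimate of 1.50 (SE 0.41) against 3.18 in pDC, and the difference of 1.79 (SE 0.29) passed the test (edgeR adjusted p = 0.0148). Iigp1, an interferon-inducible GTPase, was at 28.7 to 128 CPM in COLD pDC on 56 counts, against 1 count at RT, while in cDC1 it was at 0 to 39.4 CPM at RT and 0 to 8.22 CPM in COLD. The cDC1 difference was 6.41 (SE 1.12, edgeR adjusted p = 0.0099), a size that depends on the single RT count. For Idi1, Irf1 and Ctsb the estimate further from 0 was that of cDC1. Idi1, an enzyme of isoprenoid synthesis, fell by 2.46 (log2, SE 0.29) in cDC1 and had an estimate of 0.09 in pDC. Irf1 stood at -1.85 (SE 0.27) in cDC1 and -0.49 in pDC, and Ctsb, the lysosomal protease cathepsin B, at -1.49 (SE 0.50) and 0.48. For Isg15, the leading gene of the pDC response, no difference was called. The estimates were 4.64 in pDC, 2.89 (SE 0.48) in cDC1 and 3.36 (SE 0.44) in cDC2, with differences of 1.73 (SE 0.72, edgeR adjusted p = 0.608) and 1.55 (SE 0.67, adjusted p = 0.670).

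Of the interferon response list, 18 of 32 genes tested were called in cDC1 (median 1.77), where 2.25% of all genes were, and 31 of 35 in cDC2 (median 2.47), where 4.79% were. In pDC 1 of 23 was called (median 1.85), against 0.204% of all genes. All libraries together held 316 pDC, 1497 cDC1 and 1812 cDC2, so the counts of calls do not measure the size of the response. Each class had its own set of tested genes, and the part of the filter in the medians of cDC1 and cDC2 was not tested. Of the interaction tests, 1 of 28 list genes passed against cDC1 and 1 of 34 against cDC2, against 0.212% and 0.192% of all genes, in each case Bst2 with the lower change in pDC. These counts cover the list only. Iigp1 and Cxcl10, which are also induced by interferon, passed against cDC1 with the higher change in pDC and are not on it. Ifitm3, called in pDC and against cDC2 with the higher change in pDC, is not on it either. Other genes off the list passed with the lower change in pDC. These were Plac8 and Ly6a against cDC1, and Ly6a, Ly6e, Epsti1, Gpr171, Klra17 and Cadm1 against cDC2.

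The counts of differing genes depended on a few libraries. Against cDC1 they were 4 without the first C57 RT library or the first C57 COLD library, 20 without the second C57 COLD library, 32 without the first CL and 28 without the second CL library. Against cDC2 they were 4, 4 and 3 without the first C57 RT, second C57 RT or first C57 COLD library, and 25, 22 and 25 without the second C57 COLD, first CL or second CL library. With the replicate number as a block, the count against cDC2 was 20. Without the 26 pDC rich in other RNA the counts were 21 and 26. There Cxcl10, Lyz2 and Cd14 were no longer called against cDC1, nor S100a8, Fcgr2b, Cadm1 and Epsti1 against cDC2. Lyz2 and S100a8 were among the genes by which the 26 cells were chosen, so the loss of their calls follows from that choice. Plac8, Bst2, Ly6a, Ctsb, Fth1, Iigp1, Pmaip1, Idi1 and Irf1 were still called against cDC1, and Gpr171, Bst2, Ly6e, Ly6a, Ifitm3, Klra17 and Slpi against cDC2. Cxcl10, the gene of an interferon-induced chemokine, had 68 counts in the first C57 COLD library, of which 60.6 came from 1 pDC.

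**Figure D5:**
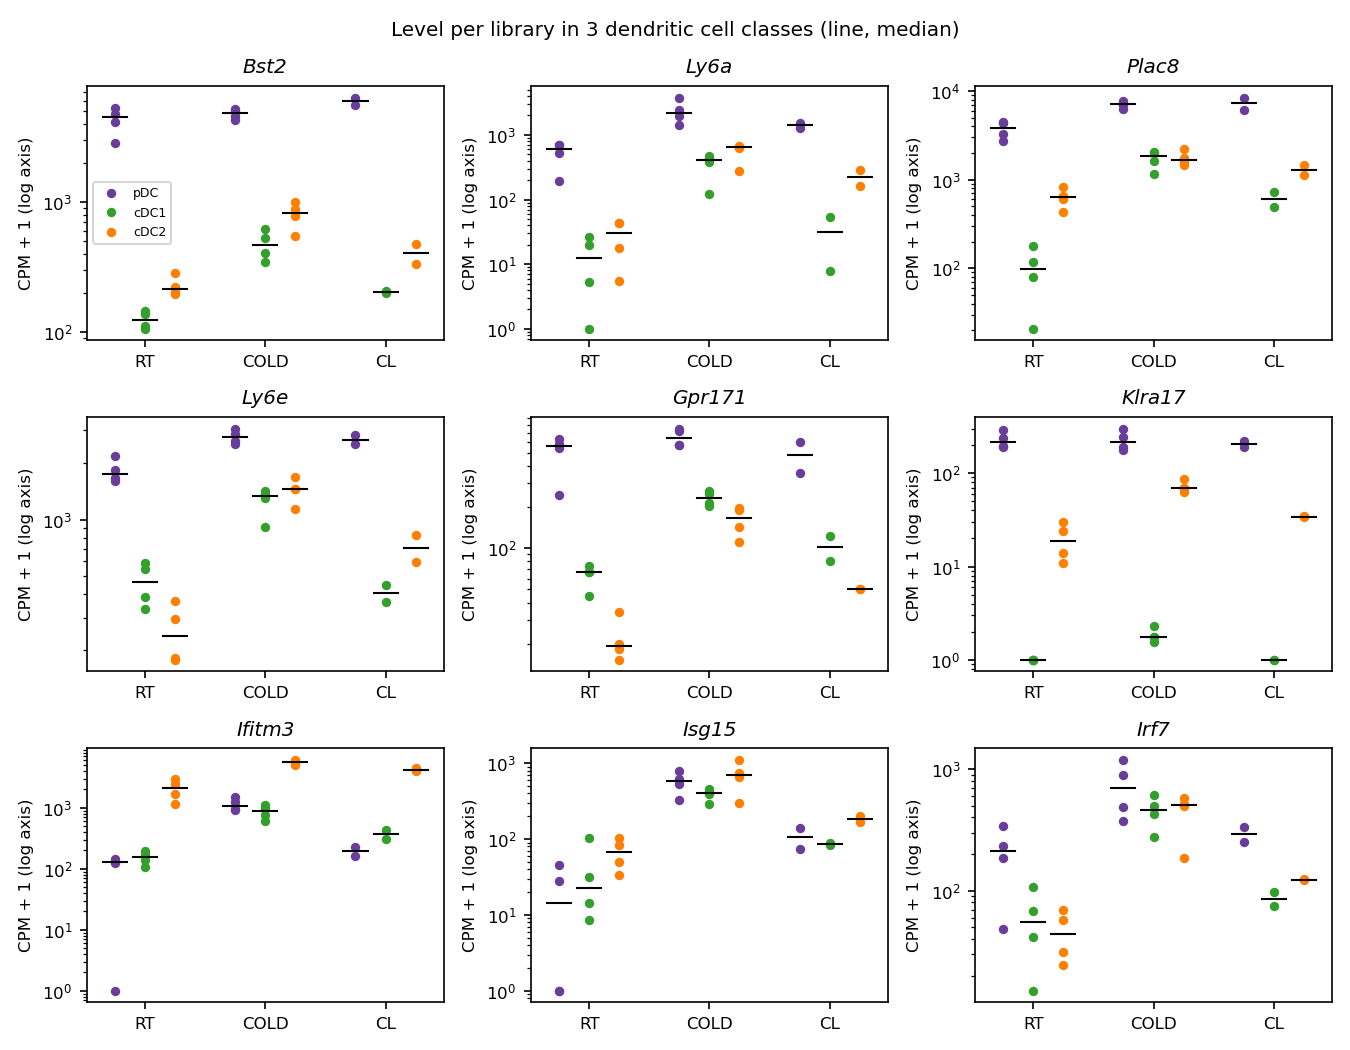
CPM + 1 on a log axis for 9 genes in pDC (purple), cDC1 (green) and cDC2 (orange), with 1 point per library at RT, COLD and CL and a line at the median. Bst2 is high in pDC in all 3 conditions and rises in COLD in cDC1 and cDC2, and Isg15 rises in all 3 classes.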

How the data were processed

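Single-cell libraries were made with 10x Genomics chemistry from Lin+ and Lin- stromal cells of iBAT, and 20 libraries (10 Lin+) were read. The deposited matrices hold expected counts: per the labels and the study's methods, the authors counted UMIs with Cell Ranger 3.0.1 on mm10 and subtracted ambient background with SoupX, which left non-whole values. The plasmacytoid dendritic cells and all gene lists were chosen with earlier results of these data known. Cells of both fractions were kept by the study's limits for Lin+ cells (10% mitochondrial counts, 15000 UMIs, 4000 genes) and at least 300 genes, and doublets were not called. Other classes were gated by marker sums.

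For expression, counts were summed over the pDC of each library, rounded, and fitted in edgeR 4.0.16 (quasi-likelihood test, TMM, filterByExpr, treatment plus line, libraries with at least 5 pDC, adjusted p below 0.05 over all genes tested). Summed pDC counts ran from 64328 to 271248 per library in the fit. The genes of the rule were not tested. Interactions between classes carried a library block, and Xcr1, Clec9a and Cd209a were not tested there. Shares were compared by exact permutation tests. Genes beyond the lists were named where they passed the test and lay on the same side in every COLD against every RT library of each line, and all interaction genes were named. Alternatives were DESeq2 1.42.0, other size factors, no filter, other gates, the rule on rounded values, thinning to 1000 UMIs, 1 line, each library left out, and a replicate block. The methods place same-numbered C57 libraries in the same experiment, and their deviations from group means correlated at 0.03 (RT and COLD), 0.02 (RT and CL) and -0.09 (COLD and CL) over genes. The 2 libraries of each C57 group differed by more than independent draws of single counts would give (chi-square per degree of freedom 2.56 to 3.14). This does not separate a difference between libraries from the sampling of few cells. The fit was also run on simulated data, and no result of that run is used here. Promoter sequences came from RefSeq (GRCm38.p6). The values of 1 gene of the interferon response list are not reported here.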

Additional observations from a re-analysis of the deposited data

Results flagged for a closer look

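Of 20 checks of a single library against the other libraries of its treatment group, 10 at RT and 10 in COLD, 3 stood out, all of them among the 10 at RT, where chance gives about 1 in 20. The CPM given here come from sums before rounding. Lefty1 stood at 245 CPM and Ifitm3 at 0 CPM in the WT RT library of 4 pDC, and Apod at 94.0 CPM in the KO RT library of 9 pDC. The first 2 values are outside the expression fit, and both RT libraries of the Adrb1 line were made with kit version 3.

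The cold change differed between pDC and cDC1, by edgeR's test of the interaction, in 12 genes. The log2 differences (pDC minus cDC1) were -3.01 for Plac8, -2.28 for Ly6a, -1.66 for Bst2, 1.43 for Irf1, 1.62 for Fth1, 1.67 for Pmaip1, 1.99 for Ctsb, 2.55 for Idi1, 3.40 for Cd14, 4.11 for Lyz2, 5.89 for Cxcl10 and 6.41 for Iigp1. With each library left out, the largest ran from 2.35 to 4.00 (Cd14), 2.35 to 5.16 (Lyz2), 4.54 to 10.9 (Cxcl10) and 5.85 to 10.2 (Iigp1). Fth1 and Pmaip1 encode the ferritin heavy chain and the apoptosis protein NOXA. Lyz2 and Cd14 are macrophage and monocyte genes, and these along with Cxcl10 were not called without the pDC rich in RNA of other cells. Those cells were chosen in part by Lyz2 itself, so the loss of its call follows from the choice.

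Between pDC and cDC2 it differed in 11 genes, with log2 differences of -3.97 for Cadm1, -2.80 for Gpr171, -2.18 for Ly6a, -1.84 for Klra17, -1.81 for Ly6e, -1.62 for Bst2, -1.53 for Epsti1, 1.79 for Ifitm3, 2.53 for Slpi, 8.28 for Fcgr2b and 9.63 for S100a8. Fcgr2b and S100a8 had no count in pDC of the RT libraries in the fit and 31 and 32 counts in COLD, so their fitted sizes depend on the prior count.

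The same gate in the Lin- libraries, which no comparison used, held 11 cells of 27048 in COLD and 3 of 19220 after CL, against 1 of 18911 at RT.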

How the results depend on the processing

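The fold changes of the 7 genes called in COLD and of the genes whose cold change differed between classes turned their sign under no alternative run, and of these values 362 kept and 119 lost the call. The other genes named were not followed over the alternatives. The genes followed were chosen by the main fits, and the alternatives share most of their libraries, so a kept sign is not independent support. Some, such as Nt5c3, Iigp1, Fcgr2b and S100a8, had 3, 1, 0 and 0 RT counts in pDC and little room to turn. For the pDC share of Lin+ cells, COLD minus RT was 0.385 points with a marker sum of at least 3 and 0.316 points with at least 500 genes (exact permutation p = 0.0286 in both), 0.228 with at least 6, 0.263 without pDC rich in other RNA and 0.289 thinned (p = 0.0857 in each), and 0.212 to 0.349 points with each library left out. CL minus RT was -0.0314 to 0.0710 points with each library left out, with -0.00185 points without the second C57 RT library, 0.196 thinned and 0.0641 without barcodes shared with the Lin- library. For the share of dendritic cells, the Adrb1 line alone gave 1.73 points with and -4.89 without mature DC, the top 6% of UMIs left out gave -3.05, thinning -3.57, and leaving out libraries gave -2.75 to -0.46. The cold comparison in pDC called 68 genes with no filter on low counts, 12 with at least 15 pDC per library, 4 with a marker sum of at least 6, 13 in C57 alone and 11 with DESeq2, and 2 to 12 with each library left out. Alternatives chosen after seeing the data gave 27 with the library of 4 pDC, 13 with the rule applied to rounded values (which gave 0.438 points, p = 0.0286 in the exact permutation test, for the share of Lin+ cells), 14 without pDC rich in other RNA, and 461 in the Adrb1 line alone with 1 residual degree of freedom. CL called 11 genes with no filter, 3 with a marker sum of at least 6 and 0 to 6 with each library left out, and KO against WT 1 with no filter and 0 otherwise. Differences from cDC1 numbered 37 with no filter, 21 without pDC rich in other RNA and 4 to 32 with each library left out, and from cDC2 45, 26 and 3 to 25. The cause of these changes was not tested.

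With the replicate number as a block, the pairing gave exact p = 0.125 for the share of Lin+ cells in COLD, the smallest possible, 5 called genes in COLD, 4 in C57 alone, 0 for CL and KO, 14 against cDC1 and 20 against cDC2. The Adrb1 line alone without the library of 4 pDC, and KO against WT without the WT COLD library, could not be fitted. The 4 to 74 pDC per library limit which genes can be tested.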
